A study of Homo sapiens with 20 samples.

Results

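POU2AF1 and IRF4 binding regions were compared with each other in untreated MM1.S cells, an established human multiple myeloma line. The regions were those of the ChIP-seq peak lists of MM1.S cells given the vehicle DMSO, 1 list for each antibody, on chromosomes 1 to 22 and X. They number 69929 of the 562708 regions in the 20 lists of the series, 36603 with the POU2AF1 antibody from Thermofisher and 33326 with the IRF4 antibody from CST. A region was called shared where a region of the other list covered at least 1 base of it. This put 17844 POU2AF1 regions in the shared class and 18759 in the POU2AF1-only class, while 18515 IRF4 regions were shared and 14811 were IRF4-only. The study asked what happens to factors of myeloma and small cell lung cancer lines when SMARCA2 and SMARCA4, the ATPases of the mSWI/SNF chromatin remodellers, are removed by the degrader AU-15330. Its dose was 1 µM, and MM1.S cells had it for 6 h by the study's account of these libraries. The lists set beside the 2 main ones here are those of MM1.S cells with AU-15330, of NCI-H929 cells, another established myeloma line, with DMSO, and of POU2F3 in the lung cancer lines NCI-H526 and NCI-H1048 with DMSO. Each condition is 1 library, so no difference has a replicate check, no test was made, and the exact 95% binomial intervals given in brackets cover counting error only.

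POU2AF1, also called OCA-B or OBF-1, is a B cell coactivator without a DNA-binding domain that reads sequence on its own. It joins the octamer factors POU2F1 and POU2F2 on DNA that holds the octamer ATTTGCAT. IRF4 is a transcription factor of the interferon regulatory factor family on which plasma cells and myeloma cells depend. It binds alone or as a dimer to the interferon-stimulated response element (ISRE), with ETS factors such as PU.1 to the composite EICE, and with AP-1 and BATF proteins to the composite AICE.

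The stretches below show which of these letters lie at the strongest regions of each class that hold an octamer core, an EICE or an ISRE within 100 bases of the summit, the point of highest signal. The search covered both strands with the octamer core TTTGCAT, the EICE as GGAA and GAAA with 2 free bases between them, and the ISRE as GAAA and GAAA with 2 free bases between them. Capitals mark the matches. All are the plus strand of hg38, 81 bases centred on the match nearest the summit, and since regions were picked for holding a match, its presence is no finding.
shared 1: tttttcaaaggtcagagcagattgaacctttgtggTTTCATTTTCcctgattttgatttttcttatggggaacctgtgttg
shared 2: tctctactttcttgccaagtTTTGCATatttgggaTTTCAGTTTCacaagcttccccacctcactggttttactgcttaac
shared 3: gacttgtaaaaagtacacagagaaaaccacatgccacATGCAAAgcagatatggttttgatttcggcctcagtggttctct
POU2AF1-only 1: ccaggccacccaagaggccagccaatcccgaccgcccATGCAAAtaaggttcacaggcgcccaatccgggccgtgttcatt
POU2AF1-only 2: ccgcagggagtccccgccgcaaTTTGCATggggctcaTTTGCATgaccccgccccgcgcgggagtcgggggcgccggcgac
POU2AF1-only 3: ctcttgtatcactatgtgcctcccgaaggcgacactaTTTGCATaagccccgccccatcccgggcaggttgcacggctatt
IRF4-only 1: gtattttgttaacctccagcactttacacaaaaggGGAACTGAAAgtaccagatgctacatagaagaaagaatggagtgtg
IRF4-only 2: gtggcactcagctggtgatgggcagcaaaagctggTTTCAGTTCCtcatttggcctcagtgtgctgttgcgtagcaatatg
IRF4-only 3: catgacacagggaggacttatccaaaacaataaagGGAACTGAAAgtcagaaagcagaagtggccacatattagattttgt

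The stretch shared 1 is at chr13:18211971-18212051, in an intergenic part of chromosome 13 by the protein-coding annotation and inside the long non-coding RNA gene FAM230C. Its ISRE lies 54 bases from the IRF4 summit, and the region was the 2nd strongest of the POU2AF1 list and the strongest of the IRF4 list. It was also called in all 20 lists of the series, the POU2F3 and HA lists of lung cancer cells included. The stretch shared 2, chr10:125064885-125064965 in an intron of CTBP2, a gene of a transcriptional corepressor, holds an octamer core and an ISRE side by side. The stretch shared 3 is at chr10:112981663-112981743 in an intron of TCF7L2, which encodes a nuclear factor of Wnt signalling, and holds an octamer core. The POU2AF1-only stretches lie at gene starts, at TMEM256 (chr17:7404119-7404199), AGRN (chr1:1033129-1033209) and HPCAL4 (chr1:39691424-39691504), and that of AGRN holds a pair of octamer cores. The IRF4-only stretches are intergenic, with C1GALT1 (chr7:7251904-7251984), SPEF2 (chr5:35518265-35518345) and PCDH8 (chr13:52921359-52921439) as the genes of the nearest start. Each holds the same EICE with CT between GGAA and GAAA, read on the minus strand in IRF4-only 2.

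The libraries were alike in depth. The background signal of each list gave an estimated 30.7 M tags for POU2AF1 and 31.0 M for IRF4. Median region widths were 329 and 287 bases, and the regions covered 15.3 Mb with POU2AF1 and 11.0 Mb with IRF4. The median fold, which is the signal at the summit over the local background of the same library, was 4.62 for POU2AF1 and 4.38 for IRF4. Expression is not measured by peak lists, so the plasma cell identity of the cells was checked only through regions at marker genes, which is described with the gene lists.

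Many regions of either protein lay on a region of the other. An IRF4 region overlapped 17844 of 36603 POU2AF1 regions, or 48.8% (48.2 to 49.3), and a POU2AF1 region overlapped 18515 of 33326 IRF4 regions, or 55.6% (55.0 to 56.1). Because a wide region can cover several others, 799 POU2AF1 regions overlapped more than 1 IRF4 region and 150 IRF4 regions more than 1 POU2AF1 region. The balance was different in NCI-H929 cells, where 29817 POU2AF1 and 65174 IRF4 regions were called. There, 71.3% of POU2AF1 regions (70.7 to 71.8) and 32.6% of IRF4 regions (32.2 to 33.0) were overlapped by the other list.

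Sharing went with strength in both lists. When each list was cut into 5 equal classes by fold, 75.4% of the strongest POU2AF1 class (74.4 to 76.4) was shared and 27.3% of the weakest (26.2 to 28.3). For IRF4 the shares were 71.8% in the strongest class (70.7 to 72.9) and 45.9% in the weakest (44.7 to 47.1). Of the 100 regions of highest fold, 77 POU2AF1 regions and 95 IRF4 regions were shared, while among the 1000 of highest fold the shares were 79.9% and 82.7%. Shared POU2AF1 regions had a median fold of 5.18 and a median width of 441 bases, against 4.21 and 267 bases in POU2AF1-only regions. Shared IRF4 regions had a median fold of 4.61 and a median width of 339 bases, against 4.19 and 241 bases in IRF4-only regions. A wider region has a greater chance of being overlapped, and the part of width in these shares was not tested.

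**Figure D1:**
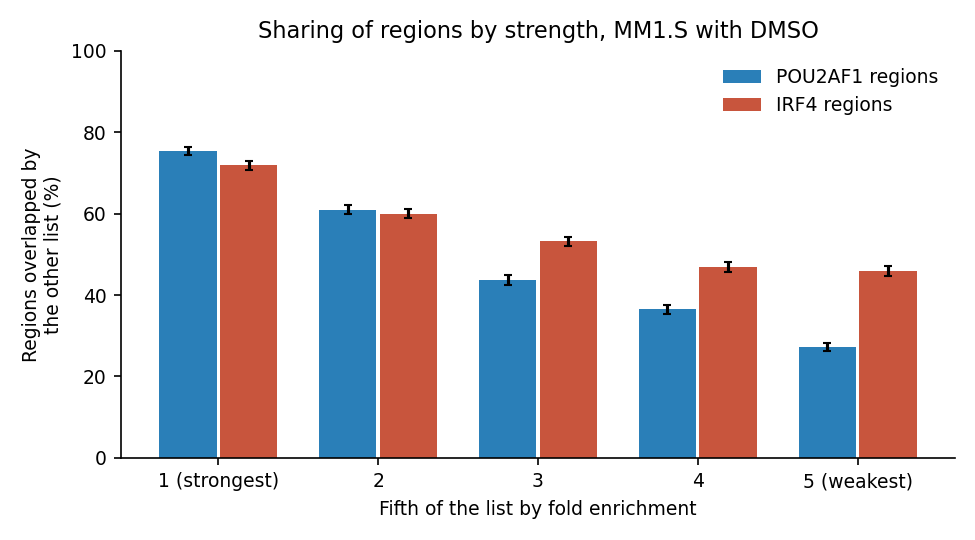
Share of regions (%, vertical axis from 0) that a region of the other list overlaps, in 5 equal classes of each MM1.S DMSO list by fold, strongest at the left. Bars are POU2AF1 regions (blue) and IRF4 regions (red), error bars are exact 95% binomial intervals, and sharing falls to 27.3% in the weakest POU2AF1 class and to 45.9% in the weakest IRF4 class.

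Each shared POU2AF1 region was paired with the overlapping IRF4 region whose summit was nearest. Paired summits lay a median of 83 bases apart (quartiles 36 and 167), with 56.9% of the 17844 pairs within 100 bases (56.1 to 57.6) and 80.8% within 200 bases (80.3 to 81.4). The distance was shorter where both signals were strong. The 1822 pairs in the strongest class of both lists had a median distance of 45 bases, and the 525 pairs in the weakest class of both had one of 111 bases. In NCI-H929 cells the median over 21249 pairs was 77 bases. The error with which summits were placed was not measured, so these distances are no spacings of the proteins on DNA.

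**Figure D2:**
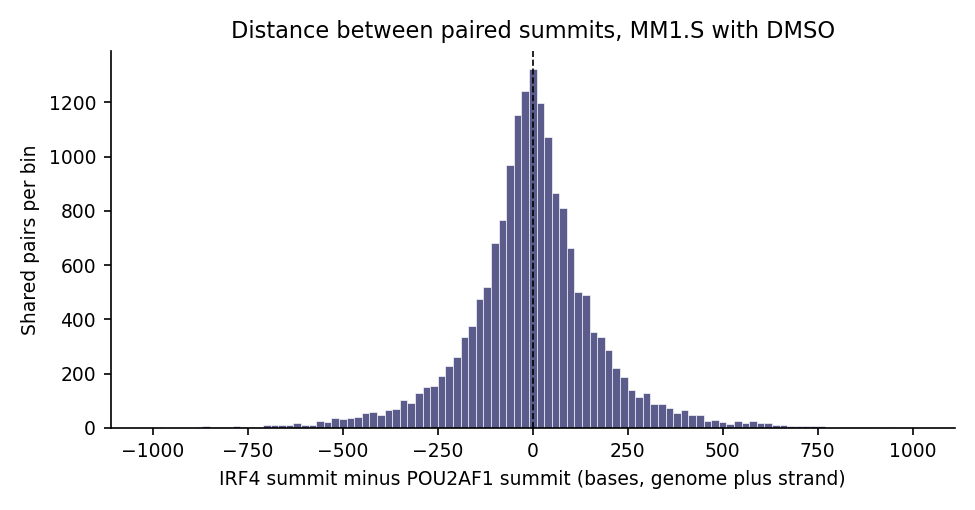
Number of shared pairs (vertical axis) by the position of the IRF4 summit minus that of the POU2AF1 summit in bases (horizontal axis, bins of 20 bases, plus strand of the genome; pairs beyond the ends of the axis are not drawn). The dashed line is 0 and the distances gather around it, with a median absolute distance of 83 bases.

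The strength of a pair in one list said little about its strength in the other. Signal was expressed as a level, the number of tags at the summit over the lowest background of the same library, with a median of 11.1 for POU2AF1 and 9.58 for IRF4 over the pairs. As a description, the rank correlation of the 2 levels was 0.301 over 17844 pairs in MM1.S cells and 0.339 over 21249 pairs in NCI-H929 cells. All pairs of a line come from the same 2 libraries, and copy number and open chromatin are common to both levels. For regions of 1 protein alone, the distance to the other protein was measured between summits. The nearest IRF4 summit lay a median of 18.2 kb from a POU2AF1-only summit, and the nearest POU2AF1 summit a median of 18.4 kb from an IRF4-only summit. Within 1 kb there was an IRF4 summit for 10.5% of POU2AF1-only regions and a POU2AF1 summit for 10.8% of IRF4-only regions.

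The classes differed in where they lay in the genome. Promoters, taken as within 1 kb of an annotated start of a protein-coding gene, held 43.9% of shared regions (43.2 to 44.7), 23.5% of POU2AF1-only regions (22.9 to 24.1) and 9.43% of IRF4-only regions (8.96 to 9.91). Introns held 24.7%, 34.2% and 42.1% of the same classes in that order, and 29.2%, 39.5% and 45.7% were intergenic. The median distance to a start was 4.63 kb for shared, 18.3 kb for POU2AF1-only and 35.0 kb for IRF4-only regions. The G+C content of the summit with 100 bases to either side had medians of 57.2%, 47.8% and 41.8%. By the rule of a 1-base overlap, promoter regions of IRF4 were rarely without POU2AF1. Of 9793 IRF4 promoter regions 85.7% were shared (85.0 to 86.4), against 43.0% of 23533 distal ones (42.4 to 43.6). Of 12249 POU2AF1 promoter regions 64.0% were shared (63.2 to 64.9), against 41.1% of 24354 distal ones (40.5 to 41.7).

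These 2 promoter shares moved with the rule of the classes. With a −log10 q of at least 5 in both lists, where q is the authors' adjusted p-value of a peak, 42.9% of POU2AF1-only regions were at promoters. With regions called shared only where summits lay within 200 bases, 22.3% of IRF4-only regions were. These were 4206 of the 9793 IRF4 promoter regions, so promoter regions of IRF4 were often without POU2AF1 by this rule. Under each rule the shares kept their order, with shared regions highest and IRF4-only regions lowest. In the strongest class by fold 93.6% of IRF4 promoter regions and 67.0% of IRF4 distal regions were shared, and in the weakest class 78.5% and 27.3% were. The corresponding POU2AF1 shares were 80.7% at promoters and 69.1% at distal sites in the strongest class and 36.6% and 24.7% in the weakest.

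**Figure D3:**
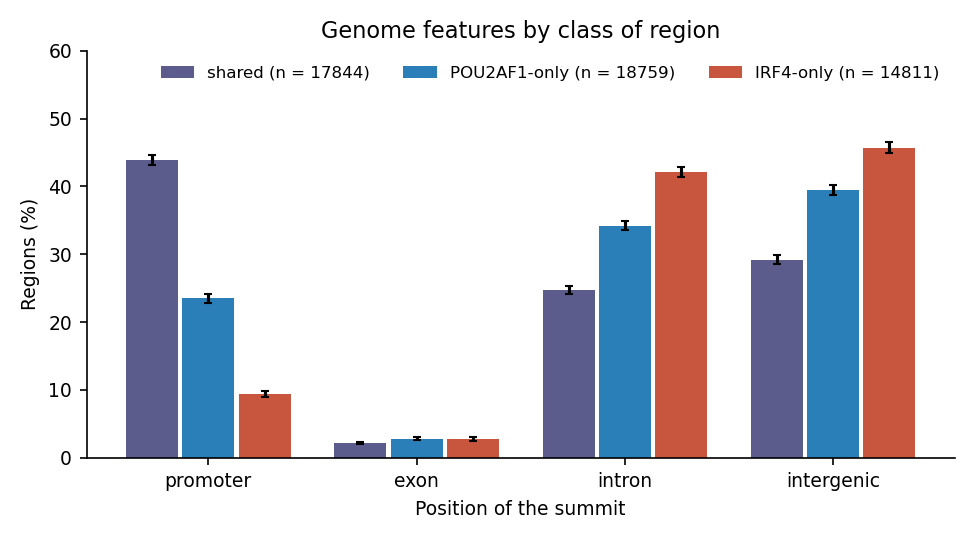
Share of regions (%, vertical axis from 0) whose summit lies in a promoter, exon, intron or between genes, for 17844 shared regions (at the POU2AF1 summit), 18759 POU2AF1-only regions and 14811 IRF4-only regions. Error bars are exact 95% binomial intervals; promoters take 43.9%, 23.5% and 9.43% of these classes.

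The octamer core was more frequent in POU2AF1-only than in IRF4-only regions, with shared regions between them at their POU2AF1 summit. An octamer core lay within 100 bases of the summit in 8.67% of POU2AF1-only regions (8.27 to 9.09), in 5.83% of shared regions at their POU2AF1 summit (5.49 to 6.19) and in 5.19% of IRF4-only regions (4.84 to 5.56). At the IRF4 summit of shared regions the share was 4.12% (3.83 to 4.41), which is 0.952 times that of the flanking windows. It was below that of IRF4-only regions, an order that was reversed at distal sites alone. Windows of the same size 2 kb away that overlap no region of either list held it in 4.94% of cases for POU2AF1-only regions, 4.31% for shared regions at the POU2AF1 summit and 5.34% for IRF4-only regions. The full octamer ATTTGCAT, which contains the core, was in 5.29% of POU2AF1-only, 3.34% of shared and 1.60% of IRF4-only regions, or 3.23, 2.49 and 0.837 times the share of the flanking windows. In the strongest fold class the octamer core reached 13.6% of 1799 POU2AF1-only regions (12.1 to 15.3) and 7.63% of 5521 shared regions (6.94 to 8.36), while 4.10% of 1878 IRF4-only regions held it (3.25 to 5.10).

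Over promoter and distal regions together, an EICE or an ISRE showed the reverse order between the classes of a single protein. It was found in 20.05% of IRF4-only regions (19.4 to 20.7), in 12.3% of shared regions at the POU2AF1 summit (11.8 to 12.8) and in 7.45% of POU2AF1-only regions (7.08 to 7.83), with 4.99% to 5.31% in the flanking windows. At the IRF4 summit of shared regions the share was 14.0% (13.5 to 14.5). In the strongest class by fold of the IRF4 list it was 41.3% of IRF4-only regions (39.0 to 43.5) and 27.1% of shared regions (25.8 to 28.4). In the strongest class of the POU2AF1 list it was 9.55% of shared regions (8.78 to 10.4) and 3.56% of POU2AF1-only regions (2.75 to 4.52). The share was thus high in strong IRF4 regions and not in strong POU2AF1 regions, of which 4001 of the 7320 strongest were at promoters, and 75.8% of IRF4-only regions held no EICE, no ISRE and no octamer core.

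**Figure D4:**
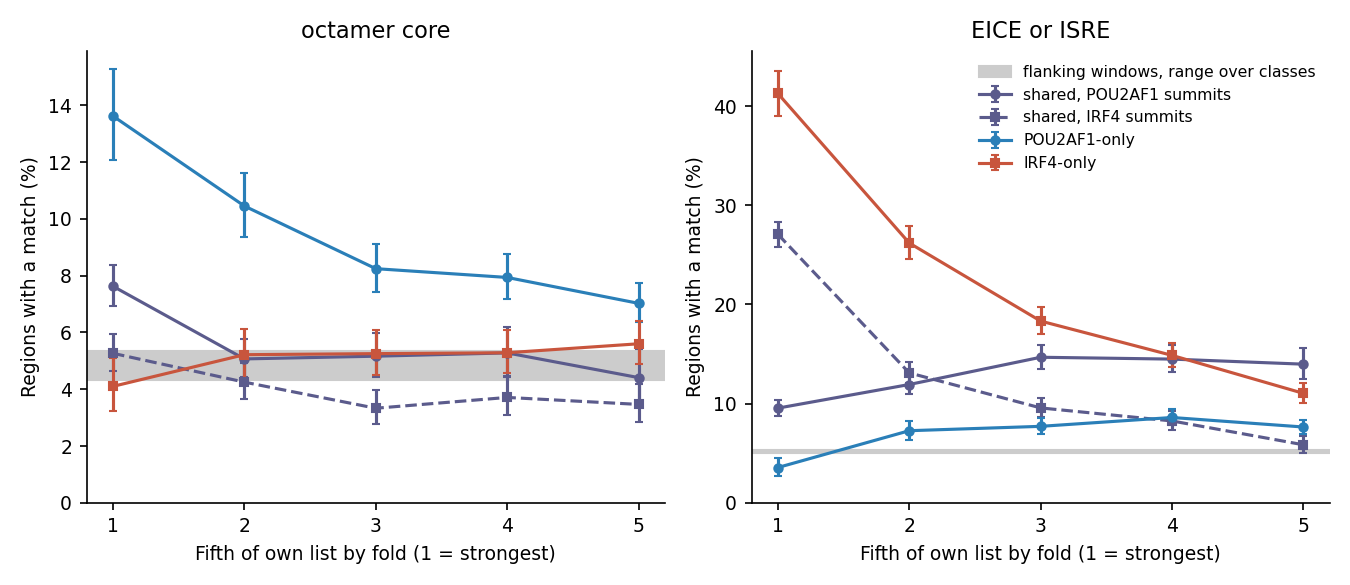
Share of regions with a match within 100 bases of the summit (%, vertical axes from 0, of different range in the panels) for the octamer core (left) and for an EICE or ISRE (right), by class of fold in the region's own list, strongest at the left. Lines are shared regions at their POU2AF1 summit (solid purple) and at their IRF4 summit (dashed purple), POU2AF1-only regions (blue) and IRF4-only regions (red), error bars are exact 95% binomial intervals, and the grey band spans the flanking windows of the classes; the strongest POU2AF1-only regions hold the octamer core in 13.6% and the strongest IRF4-only regions hold an EICE or ISRE in 41.3%.

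Since promoters are rich in G+C and hold few of these patterns, distal regions were also counted alone. At POU2AF1 summits the EICE or ISRE share was 18.8% of 10003 shared distal regions (18.04 to 19.6) and 8.79% of 14351 POU2AF1-only ones (8.33 to 9.26). At IRF4 summits it was 21.5% of 10118 shared distal regions (20.7 to 22.3) and 21.1% of 13415 IRF4-only ones (20.4 to 21.8), so these classes were alike. The octamer core was in 8.69% of shared and 10.2% of POU2AF1-only distal regions at POU2AF1 summits. At IRF4 summits it was in 6.45% of shared (5.98 to 6.95) and 5.51% of IRF4-only distal regions (5.13 to 5.91). Read from the side of the motif, 59.9% of 3142 distal POU2AF1 regions with an EICE or ISRE had an IRF4 region (58.1 to 61.6), against 37.2% of 2335 with an octamer core (35.3 to 39.2) and 38.7% of 19210 with neither (37.96 to 39.3). For IRF4 the pattern did not part the regions: 43.4% of 5006 distal IRF4 regions with an EICE or ISRE had a POU2AF1 region (42.0 to 44.8), against 46.9% of 1392 with an octamer core (44.3 to 49.6) and 42.7% of 17438 with neither (42.0 to 43.4).

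Within shared pairs the octamer sat nearer the POU2AF1 summit and the IRF patterns nearer the IRF4 summit. Only pairs whose joined regions held a single match of a pattern were used for that pattern. For the 1702 pairs with a single octamer core match, it lay a median of 91.5 bases from the POU2AF1 summit and 130 bases from the IRF4 summit. The POU2AF1 summit was the nearer in 62.7%. For the 3284 pairs with a single EICE or ISRE match, the medians were 92.0 bases from the POU2AF1 summit and 67.0 bases from the IRF4 summit. The IRF4 summit was the nearer in 57.5%. The ETS pattern CCGGAAGT, the Sp/KLF pattern GGGCGGG and the AP-1 pattern TGANTCA served as a comparison. The POU2AF1 summit was the nearer for 53.2% of 914 ETS matches, 52.1% of 2472 Sp/KLF matches and 48.8% of 2378 AP-1 matches.

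The 2 bases between the GGAA and GAAA of an EICE were not used in the search and differed from those of the flanks. In IRF4-only regions of the strongest class, 37.1% of 412 EICE matches had CT there (32.5 to 42.0), as the 3 printed IRF4-only stretches do, and 35.9% had GT. In the flanking windows CT made up 3.56% and GT 3.87% of 646 EICE matches. At IRF4 summits of shared regions in the strongest class, CT made up 27.9% and GT 28.9% of 610 matches. Over all classes of strength, CT and GT made up 24.7% and 29.2% of 1210 matches in IRF4-only regions. They made up 21.3% and 24.8% of 1065 at IRF4 summits of shared regions. At POU2AF1 summits of all shared regions, 18.1% of 896 EICE matches had CT and 23.1% had GT, against 4.97% each in the flanks. In POU2AF1-only regions CT came to 8.998% of 489 matches (6.61 to 11.9), against 4.54% in the flanks, and AT was the most frequent pair of bases with 13.3%.

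Patterns of other factors also differed between the classes. CTCF is the factor that folds chromosomes into loops, and its pattern, CCA, AG and GGC with 2 free bases between each, was in 8.21% of POU2AF1-only regions (7.83 to 8.62), 4.75% of shared regions and 2.55% of IRF4-only regions, against 0.662%, 0.583% and 0.572% in their flanks. In the strongest class by fold 14.7% of POU2AF1-only regions held it. RUNX factors direct blood cell genes, and AACCACA was in 16.95% of distal shared, 8.33% of distal POU2AF1-only and 10.4% of distal IRF4-only regions. The E-box CAGCTG was in 17.4%, 11.1% and 11.2% of the same distal classes. An AICE, taken as TTTC 4 bases before TGANTCA or GAAA joined to TGANTCA and so holding an AP-1 pattern, was rare, in 0.392% of shared, 0.171% of POU2AF1-only and 0.574% of IRF4-only regions, and 0.176% to 0.201% of their flanks. Sp/KLF letters, typical of promoters, were in 20.4% of shared, 11.1% of POU2AF1-only and 3.77% of IRF4-only regions.

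The strongest regions of each class were of different kinds. Besides FAM230C, CTBP2 and TCF7L2, the 5 strongest shared regions included a pair on chromosome 1, at 148522517 to 148523306 and at 145465295 to 145465824, that lie on RNVU1-27 and RNVU1-31, genes of variant U1 small nuclear RNAs, whose transcription is known to rest on octamer factors. The first had a fold of 18.5 for POU2AF1 and 12.8 for IRF4, and the second 22.6 and 12.6. Reads of such repeated genes may be divided among their copies, so the place of the signal among copies is uncertain. Both were called in 14 of the 20 lists.

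Of the 5 strongest POU2AF1-only regions, 3 lay at promoters, those of FRG1, TIMM22 and TMEM256. The FRG1 region on chromosome 4 (189940550 to 189941086) had a fold of 24.6 and a level of 68.2, and the TIMM22 region on chromosome 17 (996641 to 997312) a fold of 20.4 and a level of 94.9. The strongest lay at the end of chromosome 16, from 10893 to 11190, with a fold of 29.6 and a CTCF pattern, 365 bases from DDX11L16, a member of a family of near-identical copies at chromosome ends, so its place among copies is uncertain. The 5th lay on chromosome 14 from 106618431 to 106618838, among the immunoglobulin heavy chain genes, with 35 of them within 100 kb and a CTCF pattern at its summit. All 5 were also called with POU2AF1 in NCI-H929 cells and in MM1.S cells with AU-15330. The 5 strongest IRF4-only regions, near C1GALT1, SPEF2, PCDH8, KCNE4 and PSD3, had folds of 13.5 to 17.9 and lay between genes or in introns. All 5 were called with IRF4 in NCI-H929 cells, and 2 of them, near C1GALT1 and PCDH8, with IRF4 in MM1.S cells given AU-15330. Among the 500 strongest regions of each class, 50.2% of POU2AF1-only regions were at promoters, against 24.8% of shared and 2.60% of IRF4-only regions. An EICE or ISRE was in 2.20%, 23.4% and 53.6% of the same regions. The 500 shared regions were picked for strength in both lists, by the lower of their within-list ranks, and the others by their own fold. These shares are therefore not comparable with those of the whole classes, where shared regions had the highest promoter share.

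The genes of plasma cell identity and of myeloma nearly all had a region of each protein. The window of a gene was its body and 10 kb upstream, and 73.4% of all 19962 protein-coding genes had a POU2AF1 region there, 65.1% an IRF4 region and 55.6% a shared region, so a high count is the rule, as is a count that is higher for POU2AF1 than for IRF4. Of 24 plasma cell genes, 24 had a POU2AF1 region, 21 an IRF4 region and 18 a shared region. The 3 with POU2AF1 alone, where 11.9% of all genes stood, were XBP1, SEC11C and SSR4, a driver of the secretory program and parts of the machinery that takes proteins into the endoplasmic reticulum. Of 24 myeloma driver and dependency genes, 24, 22 and 20 had a POU2AF1, an IRF4 and a shared region, with CCND1 and TRAF3 lacking IRF4. Of 20 secretory pathway and unfolded protein response genes, 20 had POU2AF1, 18 had IRF4 and 18 had a shared region.

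Of the lists of other cell types, only the myeloid one had no IRF4 region. Its POU2AF1 count was below the 73.4% of all genes, as were those of the hepatocyte, T cell and B cell stage lists. Of 12 myeloid cell genes, 7 had a POU2AF1 region (CD14, CSF1R, CEBPA, CEBPE, MPO, S100A9 and ITGAM) and 0 had an IRF4 region. With windows of 50 kb to either side the same list came to 11 with POU2AF1 and 8 with IRF4, against 89.6% and 85.6% of all genes. Of 12 hepatocyte genes 6 had POU2AF1, 6 had IRF4 and 4 had a shared region, and of 14 T cell genes 8, 8 and 5 did. Of 16 genes of tuft cells, the cell type that POU2F3 specifies, 12 had POU2AF1, 11 had IRF4 and 7 had a shared region, close to the shares of all genes. The genes of earlier B cell stages had regions in 11 of 16 cases for POU2AF1 and 12 of 16 for IRF4, and 9 of 16 had a shared region. Of 25 interferon-stimulated genes 20 had POU2AF1, 20 had IRF4 and 19 a shared region. Of 9 IRF family genes 9 had POU2AF1, 8 had IRF4 and 7 a shared region, and of 13 genes of IRF4 partners 11, 9 and 7 did, with BATF, BATF3 and JUNB having POU2AF1 alone and BATF2 having neither. Of 6 octamer factor and coactivator genes 4 had POU2AF1, 5 had IRF4 and 4 a shared region. Of 23 mSWI/SNF subunit genes 21, 19 and 18 did, and of 16 housekeeping genes 16, 13 and 13. A pattern of IRF4 without POU2AF1, met in 3.63% of all genes, was seen at SPIB, CD3G, CD2, POU2F3, ASCL2 and IFI44 in these lists. Myeloid genes are short, with a median length of 5.54 kb against 27.5 kb over all genes, and the part of gene length in these counts was not tested.

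Regions at plasma cell and myeloma genes had low folds and high levels. The 77 POU2AF1 regions in the windows of the plasma cell genes had a median fold of 3.70, against 4.62 in all POU2AF1 regions, and a median level of 12.0, against 8.47. Only 29.9% of them lay above the median fold of the list, while 84.4% lay above its median level. The 58 IRF4 regions of these genes had a median fold of 4.07, against 4.38 in all IRF4 regions, and a median level of 11.4, against 8.21. The 96 POU2AF1 and 80 IRF4 regions of the myeloma driver and dependency genes had median folds of 3.84 and 4.16 and median levels of 10.7 and 10.0. A fold divides by the local background and a level by the lowest background of the library, so the local background around these genes was high in both libraries. Housekeeping genes had high levels as well, with medians of 13.8 for POU2AF1 and 10.3 for IRF4. Their median fold was low for IRF4, at 4.04, and not for POU2AF1, at 4.62. IRF family genes had median folds of 3.87 and 4.33 and levels of 11.1 and 11.4. Secretory pathway and unfolded protein response genes had folds of 4.30 and 3.74 and levels of 12.7 and 9.12. The trait was thus not particular to plasma cell and myeloma genes. The rank of a region by fold is therefore no rank of its signal at genes of these lists.

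XBP1, which drives the secretory program of plasma cells, shows POU2AF1 without IRF4. Its start on chromosome 22 lay in a POU2AF1 region from 28800173 to 28800922 with a fold of 3.71, which was only the 29243rd of the list, and a level of 25.4, and a further pair of POU2AF1 regions lay in and before the gene. No IRF4 region was called in the window. IRF4 itself had 1 shared region, at its promoter on chromosome 6, with folds of 3.82 for POU2AF1 (391270 to 392012) and 4.63 for IRF4 (391638 to 392046) and levels of 18.7 and 17.3. A further 3 regions of the IRF4 window were POU2AF1-only, and the one in an exon, from 409617 to 409821, held an octamer core.

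POU2AF1, the coactivator's own gene on chromosome 11, had 7 POU2AF1 and 6 IRF4 regions, with 3 shared. The shared region at its promoter had a fold of 4.57 for POU2AF1 (111378698 to 111379522) and 4.23 for IRF4 (111379188 to 111379734), with summits 236 bases apart. POU2F2, which encodes the lymphoid octamer factor OCT-2, had 6 POU2AF1 and 5 IRF4 regions on chromosome 19, with 4 shared. Its intronic shared region from 42108578 to 42108833 was the 556th strongest of the POU2AF1 list, with a fold of 11.4, against 4.69 for IRF4. POU2F1, the gene of the ubiquitous octamer factor OCT-1, had 5 POU2AF1 and 3 IRF4 regions on chromosome 1, with 2 POU2AF1 regions shared. A POU2AF1-only region with an octamer core lay at an internal POU2F1 promoter from 167328636 to 167329085, with a fold of 7.07.

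Some shared regions ranked far higher in the IRF4 list than in the POU2AF1 list, ranks being used because signals of different antibodies are not on 1 scale. BHLHA15 encodes MIST1, a factor of secretory cells, and a shared region on chromosome 7, in an intron upstream of its start, was the 18247th by fold in the POU2AF1 list, with a fold of 4.62 (98202559 to 98202802), and the 47th in the IRF4 list, with a fold of 14.0 (98202440 to 98202823). BHLHA15 had 2 POU2AF1 and 3 IRF4 regions in all, and both POU2AF1 regions were shared. CD38, the surface enzyme that daratumumab binds, had 5 shared POU2AF1 regions on chromosome 4, and the intronic one at 15784964 to 15785321 had a fold of 5.53 and rank 10298 for POU2AF1 and a fold of 11.6 and rank 154 for IRF4, with an EICE and summits 17 bases apart. CD38 had 6 POU2AF1 and 4 IRF4 regions in all. At a promoter of PRDM1, the gene of the plasma cell factor BLIMP-1, a shared region on chromosome 6 with an ISRE had a fold of 3.14 and rank 34981 for POU2AF1 (105992335 to 105992621) and a fold of 6.45 and rank 3364 for IRF4 (105992295 to 105992720). These ranks are by fold. By level, the POU2AF1 and IRF4 ranks were 11034 and 789 at this region, 10153 and 158 at that of CD38 and 19786 and 91 at that of BHLHA15. PRDM1 had 6 regions of each protein, and 4 of the POU2AF1 regions were shared.

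Other genes had neighbouring but separate regions of the 2 proteins, some of them beside shared ones. TNFRSF17 encodes BCMA, a target of myeloma immunotherapy, and its window on chromosome 16 held 3 POU2AF1-only and 2 IRF4-only regions. The IRF4-only region with an ISRE, from 11964932 to 11965192, lay between POU2AF1-only regions at 11964444 to 11964762 and 11965206 to 11965430, so the class rests there on gaps shorter than a region. SLAMF7, the antigen that elotuzumab binds, had 1 POU2AF1-only and 3 IRF4-only regions. At ELL2, an elongation factor gene that favours secreted immunoglobulin, a POU2AF1-only region with an octamer core (95925935 to 95926272, fold 5.81) and an IRF4-only region with an EICE (95924183 to 95924438, fold 4.67) lay in introns on chromosome 5. ELL2 had 3 regions of each protein in all, and 2 of each were shared, with folds of 6.35 for POU2AF1 and 4.07 for IRF4 at its promoter. IKZF1 had 4 POU2AF1-only and 2 IRF4-only regions and no shared one, while IKZF3 had 6 POU2AF1 and 8 IRF4 regions with 2 shared. The anti-apoptotic gene MCL1 had 3 POU2AF1 and 5 IRF4 regions with 3 shared, and BCL2 had 7 POU2AF1 and 9 IRF4 regions with 3 shared.

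The other genes fixed for naming had 1 or more shared regions each. MYC had 2 POU2AF1 regions and 1 IRF4 region with 1 POU2AF1 region shared, the cyclin gene CCND2 had 3, 1 and 1, and the kinase gene CDK6 had 8, 6 and 4. The transcription factor genes MEF2C and CREB3L2 had 5, 3 and 1 and 7, 5 and 3. Among surface receptors, TNFRSF13B, which encodes TACI, had 3, 2 and 1, SDC1, which encodes the plasma cell marker CD138, had 5, 3 and 3, and FCRL5 had 2, 2 and 1. Among genes of antibody assembly, MZB1 had 4, 3 and 2, JCHAIN, the joining chain, had 2, 3 and 2, and the disulfide isomerase gene TXNDC5 had 4, 3 and 2.

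Shared regions were the ones most often called in NCI-H929 cells. Both proteins were called there at 59.3% of shared regions (58.6 to 60.04), POU2AF1 at 62.0% (61.2 to 62.7) and IRF4 at 85.1% (84.6 to 85.7). POU2AF1 was called in NCI-H929 cells at 26.9% of POU2AF1-only regions (26.2 to 27.5), while an IRF4 region lay at 40.02% of them (39.3 to 40.7). IRF4 was called at 40.3% of IRF4-only regions (39.5 to 41.1) and POU2AF1 at 10.5% (10.0 to 11.0). Many regions without IRF4 in MM1.S cells therefore had it in NCI-H929 cells, whose IRF4 list is longer; the lists held 33326 regions in MM1.S cells and 65174 in NCI-H929 cells. At like strength the difference between classes remained, though shared regions were wider and the part of width was not tested. In the strongest fold class 84.6% of shared POU2AF1 regions and 70.0% of POU2AF1-only regions were called with POU2AF1 in NCI-H929 cells, and 91.3% of shared IRF4 regions and 73.4% of IRF4-only regions with IRF4. POU2F3 of lung cancer cells also lay at shared regions more than at others, in NCI-H526 at 44.1% of shared, 25.6% of POU2AF1-only and 7.51% of IRF4-only regions, and at distal sites alone at 19.0%, 16.6% and 5.78%. In NCI-H1048 the shares were lower, at 28.9%, 12.3% and 2.76%, and at distal sites alone 8.38%, 6.09% and 1.87%.

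With AU-15330, IRF4-only regions were nearly all lost from the IRF4 list of MM1.S cells. IRF4 was called with AU-15330 at 1.84% of IRF4-only regions (1.63 to 2.07) and at 16.2% of shared regions (15.7 to 16.8). POU2AF1 was called with AU-15330 at 19.4% of POU2AF1-only regions (18.8 to 19.9) and at 48.8% of shared regions (48.0 to 49.5). Both proteins remained called at 13.0% of shared regions (12.5 to 13.5), POU2AF1 alone at 35.8%, IRF4 alone at 3.19% and neither at 48.0%. With coverage of 50% or more required, both were called at 4.68% of shared regions and IRF4 at 1.05% of IRF4-only regions. The estimated depth was 26.2 M tags for POU2AF1 with AU-15330 and 39.0 M for IRF4 with AU-15330, against 30.7 M and 31.0 M with DMSO. The lists held 20677 POU2AF1 and 6511 IRF4 regions with AU-15330, against 36603 and 33326 with DMSO. The IRF4 list was shorter at a greater estimated depth. That estimate divides by the width of the narrowest region, which for IRF4 was 158 bases with AU-15330 and 191 bases with DMSO.

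By a 1-base overlap, the difference between classes held at each strength and at promoters and distal sites alike. Shared regions were wider than unshared ones, and the part of width in this difference was not tested. In the strongest fold class 4.90% of IRF4-only regions (3.97 to 5.97) and 19.8% of shared IRF4 regions (18.7 to 20.9) were called with AU-15330. For POU2AF1 these were 58.6% of POU2AF1-only regions (56.3 to 60.9) and 73.5% of shared regions (72.3 to 74.6). At promoters POU2AF1 stayed called at 80.3% of shared and 47.8% of POU2AF1-only regions, and at distal sites at 24.1% and 10.6%. IRF4 stayed called at 22.7% of shared and 4.08% of IRF4-only promoter regions, and at 10.6% and 1.61% of distal ones. At shared regions called under both treatments, the level with AU-15330 was a median of 0.790 times that with DMSO for POU2AF1 (8704 regions) and 0.733 times for IRF4 (2980 regions). These ratios cover only regions that kept a peak, so they leave out the regions with the greatest loss of signal.

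**Figure D5:**
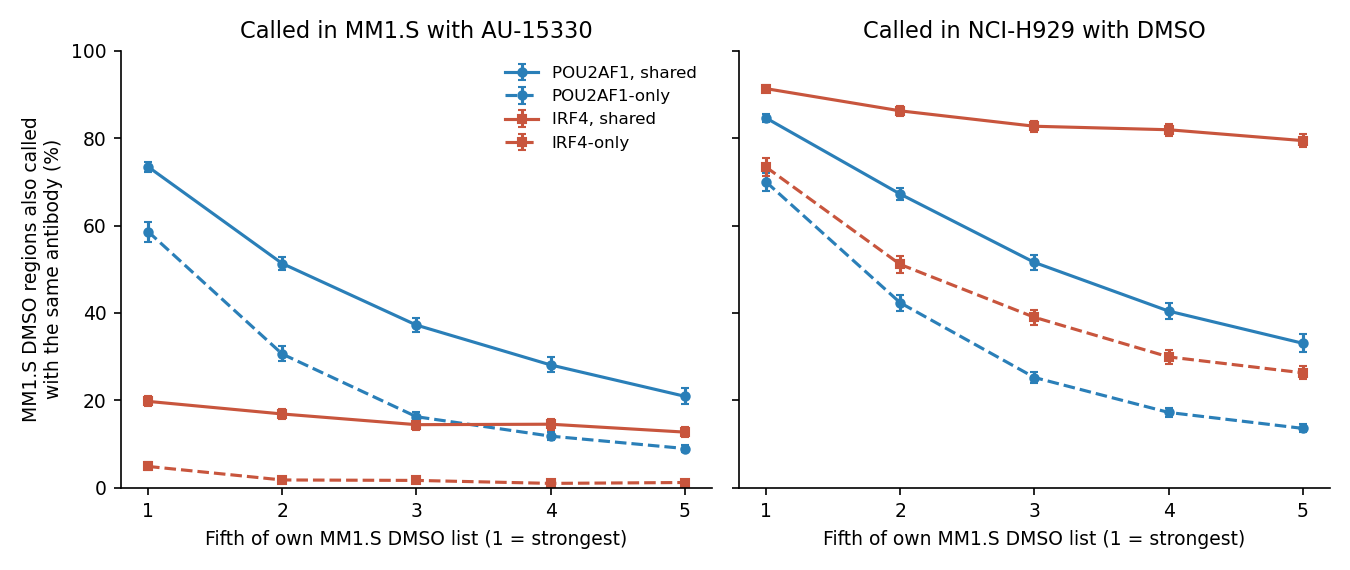
Share of MM1.S DMSO regions (%, vertical axis from 0) that were also called with the same antibody in MM1.S cells with AU-15330 (left) and in NCI-H929 cells with DMSO (right), by class of fold in their own list, strongest at the left. Solid lines are shared and dashed lines unshared regions of POU2AF1 (blue circles) and IRF4 (red squares), error bars are exact 95% binomial intervals, and shared regions lie above unshared ones of the same protein in every class; with AU-15330 at most 4.90% of IRF4-only regions were called in any class.

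Sharing differed between chromosomes. The share of POU2AF1 regions with IRF4 ran from 34.7% on chromosome 14 to 55.4% on chromosome 16, and the share of IRF4 regions with POU2AF1 from 47.7% on chromosome 4 to 76.5% on chromosome 19. Chromosome 14 had 516 POU2AF1 and 325 IRF4 regions, or 1.59 POU2AF1 regions for each IRF4 region, the highest ratio of all chromosomes. The genes with most shared regions were long ones, led by RUNX1 with 19 shared, 9 POU2AF1-only and 13 IRF4-only regions in a gene of 1217 kb, followed by GNG7 with 11 shared regions.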

How the data were processed

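POU2AF1 and IRF4 ChIP-seq peak lists of MM1.S cells were used as deposited. The study's methods state that the authors used BWA (0.7.17-r1198-dirty) for alignment and SAMtools (1.9) with Picard for filtering. Trimmomatic (0.39) and the build GRCh38/hg38 are named in the submitters' processing notes. Peaks came from MACS2 (2.1.1.20160309), for which the authors set the q-value limit to 0.05 and named no control, and blacklisted regions were taken out. The authors' columns are the fold over the local background, the −log10 p and −log10 q, a score of 10 times the latter, and the summit offset.

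Regions on chromosomes 1 to 22 and X were kept, which left out 143 POU2AF1 and 119 IRF4 regions. Tag numbers at summits were solved from the fold and p-value as whole numbers for 100% of regions (tolerance 0.002). Depth was estimated from the lowest background and the width of the narrowest region, with the caller's genome of 2.7 Gb. Genes, starts, exons and introns are those of protein-coding genes of GENCODE 44. Shares have exact (Clopper-Pearson) 95% intervals, which cover counting error only. No test was run, with 1 library per condition. The text names 26 fixed genes, all given by counts, with single regions described for genes picked after their values were seen, the 5 regions of highest fold in each class (shared: by the lower of the within-list ranks) and the first 3 of each class with a motif as sequences, none from chromosome 8. Region members, genes and the 14 gene lists were chosen with earlier results of these data known. The comparison was repeated with stricter peaks (−log10 q of 5 or more), equal list lengths, all sequences in the files, 50% overlap, summits within 200 bases, promoters within 2 kb, motif windows of 50 bases, thinning to 1 depth, and other gene windows. Scripts ran in Python 3.11.15 with pandas 2.3.3, scipy 1.17.1 and pysam 0.24.0, and were tested on simulated regions.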

Additional observations from a re-analysis of the deposited data

Results flagged for a closer look

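The POU2AF1 and IRF4 lists differed in opposite directions in the 2 myeloma lines, with 1 library per condition, so that these differences were not tested. POU2AF1 minus IRF4 came to 3277 regions in MM1.S cells and to -35357 regions in NCI-H929 cells. The median fold of POU2AF1 minus that of IRF4 was 0.234 in MM1.S cells and -0.419 in NCI-H929 cells. The share of POU2AF1 regions overlapped by IRF4, minus the share of IRF4 regions overlapped by POU2AF1, was -6.81 percentage points in MM1.S cells and 38.7 points in NCI-H929 cells.

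Regions on sequences other than chromosomes 1 to 22 and X were outside the comparison. They numbered 143 in the POU2AF1 list and 119 in the IRF4 list of MM1.S cells with DMSO.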

How the results depend on the processing

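Of 60 recomputed values of the main shares and counts, 22 stayed within the counting error or within 1.5 times, and 38 moved. With a −log10 q of at least 5 in both lists, 43.4% of POU2AF1 and 56.9% of IRF4 regions were shared, 62.2% of pairs had summits within 100 bases, promoters held 45.2% of shared and 42.9% of POU2AF1-only regions, an EICE or ISRE was in 13.6% of shared, 6.35% of POU2AF1-only and 29.4% of IRF4-only regions, and the octamer core was in 4.43% of IRF4-only regions. With equal list lengths 51.0% of POU2AF1 and 53.1% of IRF4 regions were shared, with 50% overlap 35.3% and 49.0%, and with summits within 200 bases 39.5% and 43.4%. Classes by summits within 200 bases gave promoter shares of 38.6% (shared), 30.1% (POU2AF1-only) and 22.3% (IRF4-only), EICE or ISRE shares of 14.1%, 7.01% and 17.2%, and octamer core shares of 8.07% (POU2AF1-only) and 4.46% (IRF4-only). Promoters within 2 kb gave 46.3%, 26.7% and 12.2%. Motif windows of 50 bases gave an EICE or ISRE in 6.70%, 3.73% and 12.5% and an octamer core in 3.49%, 5.39% and 2.60%. With 50% of the region covered, 47.3% of shared, 21.9% of POU2AF1-only and 36.3% of IRF4-only regions were called in NCI-H929, and 4.68%, 14.4% and 1.05% with AU-15330. The cause of these shifts was not tested. A shared region was counted here only where both proteins were called, and at 50% coverage the order of the classes with AU-15330 was the same. Of 72 recomputed counts for single gene lists, 16 moved. No paired analysis was possible because each condition is 1 library.

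A region that was not called is not shown to be unbound, and weak regions near the threshold limit every share. Levels of different antibodies are not on 1 scale.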
